A study of Mus musculus with 6 samples.

Results

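In mouse embryonic stem cells rescued with wild-type WDR5, 3899 of 10942 WDR5 regions on chromosomes 1 to 19 (35.6%) lay on H3K4me3 and were overlapped by no WDR5 region of the cells rescued with the S91K Y191F mutant. A region is 1 peak of the authors' deposited peak list of 1 chromatin immunoprecipitation sequencing (ChIP-seq) library. The members were chosen by 3 peak lists: presence in the WT rescue WDR5 list, absence from the mutant rescue WDR5 list and an overlap of at least 1 bp with the WT rescue H3K4me3 list. Their WDR5 values and their H3K4me3 in the WT rescue are therefore a description, and the mutant rescue H3K4me3 list, gene positions and promoter sequence were not used in the choice.

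The study profiled WDR5 and H3K4me3 in an Rx:GFP knock-in line of these cells, grown in 2i+LIF, a medium that holds cells in naive pluripotency. Both lines analysed lacked endogenous Wdr5 and p53. The mutant rescue expressed WDR5 with the substitutions S91K and Y191F, and the WT rescue expressed WDR5WT. Chromatin was fixed in 1% PFA for 10 minutes, and each line had 1 WDR5 and 1 H3K4me3 library. With 1 library per antibody and line there is no replicate check, so no difference between the lines is tested and no p-value is given. The sources used here do not say whether each line was derived as 1 clone, how strongly each transgene was expressed, or how deeply each library was sequenced. The mutant rescue WDR5 list was the longer one, with 26888 regions against 11095 in the WT rescue list. A WDR5 region missing from the mutant rescue list, weaker enrichment of that library and a lower level of the mutant protein cannot be told apart. Of 8 stem cell marker genes, all 8 had H3K4me3 within 1 kb in both lines, and of 7 fibroblast genes 5 had it in the mutant rescue and 7 in the WT rescue. The stem cell markers were thus all marked, and H3K4me3 alone did not set fibroblast genes apart.

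WDR5 is a WD-repeat scaffold protein and a core subunit of the KMT2/SETD1 complexes, together with RBBP5, ASH2L and DPY30. These complexes methylate histone H3 on lysine 4, and the trimethylated form marks the promoters of active and CpG-rich genes. WDR5 has a central cavity that binds an arginine motif of KMT2 proteins and other partners, and a second surface that binds RBBP5 and MYC.

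The promoters of 6 genes are shown before the values, because they differ in fold (1.92 at Rps9 to 4.33 at Clybl), in gene function and in motif content. They were picked after the values were seen. Each line is the RefSeq GRCm38.p6 window that starts 250 bases before and ends 50 bases after the annotated gene start, read 5′ to 3′ on the gene's strand. Capitals mark matches to short motifs, searched on both strands unless stated. These are the E-box, spelled CACGTG, the core of the NRF1 site, spelled CGCATGC, and the ETS factor motif, spelled CCGGAAG. The others are the YY1 motif, spelled AAGATGG, the NF-Y motif, spelled CCAAT, and the SP/KLF motif, spelled GGGCGG. The core of the CRE is spelled TGACGTC, the pyrimidine tract CTTTCC, and the TATA box, searched on the gene's strand alone, TATAAA.
Clybl: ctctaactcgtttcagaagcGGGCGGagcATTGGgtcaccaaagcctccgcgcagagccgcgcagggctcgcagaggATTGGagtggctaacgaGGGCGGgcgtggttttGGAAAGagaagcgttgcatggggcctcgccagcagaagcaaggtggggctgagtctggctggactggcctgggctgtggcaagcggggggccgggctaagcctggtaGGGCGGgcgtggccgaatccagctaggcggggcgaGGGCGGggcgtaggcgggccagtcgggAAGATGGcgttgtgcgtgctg
Topbp1: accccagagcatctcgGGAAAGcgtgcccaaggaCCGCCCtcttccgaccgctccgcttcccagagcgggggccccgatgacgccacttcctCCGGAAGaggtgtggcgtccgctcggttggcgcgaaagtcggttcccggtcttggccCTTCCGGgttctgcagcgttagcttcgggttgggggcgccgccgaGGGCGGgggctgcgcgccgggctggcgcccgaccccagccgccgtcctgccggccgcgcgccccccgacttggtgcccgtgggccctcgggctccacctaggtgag
Kmt2a: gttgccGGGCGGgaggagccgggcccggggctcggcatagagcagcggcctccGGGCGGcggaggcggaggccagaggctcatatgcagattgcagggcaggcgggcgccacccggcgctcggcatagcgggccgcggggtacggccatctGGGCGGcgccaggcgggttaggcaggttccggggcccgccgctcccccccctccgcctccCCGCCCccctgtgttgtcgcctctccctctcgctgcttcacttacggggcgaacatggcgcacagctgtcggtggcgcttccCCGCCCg
Ldha: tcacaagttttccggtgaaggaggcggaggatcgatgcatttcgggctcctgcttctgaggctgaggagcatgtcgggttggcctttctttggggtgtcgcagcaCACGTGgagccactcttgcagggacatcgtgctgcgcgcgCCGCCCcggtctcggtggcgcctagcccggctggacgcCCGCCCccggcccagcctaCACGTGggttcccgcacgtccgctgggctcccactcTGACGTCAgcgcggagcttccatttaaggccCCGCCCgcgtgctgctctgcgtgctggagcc
Wdr5: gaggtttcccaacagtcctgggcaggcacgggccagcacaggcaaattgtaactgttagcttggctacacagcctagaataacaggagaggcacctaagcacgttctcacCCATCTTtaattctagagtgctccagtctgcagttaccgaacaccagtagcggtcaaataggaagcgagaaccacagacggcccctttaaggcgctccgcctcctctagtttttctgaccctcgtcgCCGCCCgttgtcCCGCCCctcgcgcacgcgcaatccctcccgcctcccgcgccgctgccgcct
Rps9: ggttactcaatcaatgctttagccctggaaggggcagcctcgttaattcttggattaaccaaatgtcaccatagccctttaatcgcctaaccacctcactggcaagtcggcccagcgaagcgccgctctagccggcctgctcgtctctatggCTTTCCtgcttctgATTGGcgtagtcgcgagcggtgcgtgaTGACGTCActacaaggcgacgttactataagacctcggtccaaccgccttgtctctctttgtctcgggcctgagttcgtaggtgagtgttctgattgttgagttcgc
Clybl, which encodes a mitochondrial citramalyl-CoA lyase, has its window at chr14:122181444-122181743 (+) and its WDR5 region at chr14:122181474-122181785. The summit of that region lay at −1 bp from the annotated start, and 270 of the 300 bases were under the region. Topbp1, a scaffold of the DNA damage checkpoint, has its window at chr9:103305077-103305376 (+), wholly under the region at chr9:103305042-103305437. The Kmt2a window at chr9:44881240-44881539 (−) also lay wholly under its region at chr9:44881190-44881625, and its 5 matches are all of the SP/KLF motif. The Ldha window is at chr7:46845554-46845853 (+), with 134 bases under the region at chr7:46845720-46846132. Its 7 matches count 1 palindromic CRE core site on each strand. The Wdr5 window at chr2:27514897-27515196 (+) had 60 bases under the region at chr2:27515137-27515539, and the Rps9 window at chr7:3703791-3704090 (+) had 121 under the region at chr7:3703970-3704216.

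Among the WT rescue WDR5 regions, 9630 (88%) were overlapped by no mutant rescue region and 5022 (45.9%) lay on H3K4me3. The members are the regions with both properties. They were short and of modest enrichment: the median width was 228 bp (151 to 933 bp) and the median fold enrichment 2.64, with 10% of members under 2.09 and 10% above 3.37. Folds are the authors' own, one per region, and are used here only within the list they come from. A fold under 2 was listed for 231 members, 2 to 3 for 2692, 3 to 4 for 903, 4 to 5 for 54 and 5 or more for 19. All 19 of the last class were under 300 bp wide. The members cover 1019 kb together.

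The listed significance of the members was low. Their median −log10 p was 3.75 and their median −log10 q, the value adjusted by the authors' peak caller, was 0.144. A −log10 q of 2 or more was listed for 354 members (9.08%), and 1509 (38.7%) had a −log10 q of 0. The 1123 regions on H3K4me3 that a mutant rescue region did overlap, called shared regions here, had a median fold of 3.05 and a median width of 309 bp, and 45.5% of them had a −log10 q of 2 or more. The 5731 WT rescue regions off H3K4me3 and without overlap had a median fold of 2.66 and a median width of 185 bp, and 3.28% reached that −log10 q.

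The position of the members in the ranked WT rescue list shows where they differ from shared regions. Split into 10 classes of equal size by −log10 p, the most significant class was 31.2% members, with 53.5% overlapped in the mutant rescue. The next class was 50.5% members, with 17.1% overlapped in the mutant rescue. From there to the end of the list the members' share ranged between 27.1% and 42.0%, while the overlapped share was 11.3% or less. In the least significant class, 30.9% were members and 34.7% lay on H3K4me3.

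**Figure D1:**
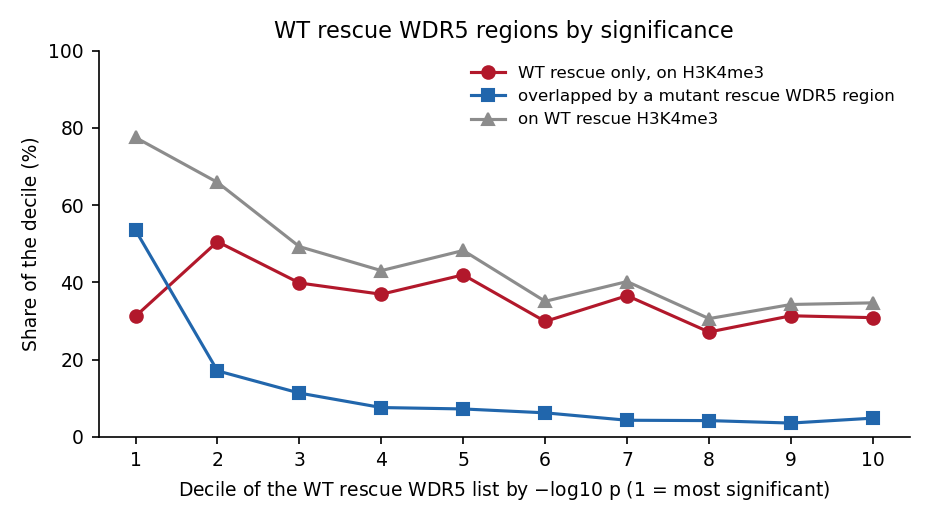
Share of WT rescue WDR5 regions (y axis, percent) in 10 equal classes of the list by −log10 p (x axis, 1 is the most significant) that were found in the WT rescue alone and on H3K4me3 (red), overlapped by a mutant rescue WDR5 region (blue) or on WT rescue H3K4me3 (grey). The red share is highest in class 2, at 50.5%, and the blue share in class 1, at 53.5%.

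By the rule no member overlaps a mutant rescue WDR5 region, so the distance to that list is a description. It was not measured for other regions, so these values have no background beside them. The nearest mutant rescue WDR5 region was more than 5 kb away for 3271 members (83.9%), with a median distance of 27476 bp. It lay within 100 bp for 91 members, 101 to 500 bp away for 159, 501 to 1000 bp for 88 and 1001 to 5000 bp for 290. At the edge of the rule, the regions inside Tmtc1 and at Slc2a13 lay at a distance of 2 bp (1 means touching) and the Rps9 region at 5 bp. Just outside the rule, the region at chr2:28513328-28513478 (fold 2.63) and the one at chr5:90366243-90366667 (fold 1.92) overlapped a mutant rescue region by 1 bp, and chr1:191907128-191907291 (fold 3.58) overlapped one by 2 bp. For the H3K4me3 condition, the smallest overlaps among members were 1 bp at chr3:95174315-95174520, 3 bp at chr2:31425255-31425405 inside Hmcn2 and 3 bp at chr1:64975635-64975785. The nearest regions left out lay at distances of 1 bp (chr15:83367474-83367624 and chr8:27024710-27024881) and 7 bp (chr13:65113531-65113860).

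The members with the highest fold were narrow and mostly not at promoters. The highest was at chr12:49572124-49572399, near no protein-coding gene, with a fold of 13.5 on an H3K4me3 region of 151 bp that no mutant rescue H3K4me3 region overlapped. Regions inside Abhd12 (chr2:150863568-150863772, fold 9.99), inside Alkbh5 (chr11:60554189-60554402, fold 9.60) and inside Nrg1 (chr8:32427453-32427720, fold 7.14) followed, on H3K4me3 regions of 179, 167 and 151 bp. Abhd12 encodes a lysophospholipase, Alkbh5 an RNA demethylase and Nrg1 a growth factor. The Alkbh5 region lay 305 bp from a mutant rescue WDR5 region. The fifth, at chr9:99831826-99832107, had a fold of 6.81 on 151 bp of H3K4me3. The highest −log10 q of a member, 162, belonged to the 153 bp region at chr12:120028725-120028877, whose fold was 2.31. It lay on an H3K4me3 region of 281 bp with an H3K4me3 fold of 53.9, against a median of 9.06 for H3K4me3 regions with a member. The members of highest fold named here thus sat on H3K4me3 regions of 151 to 179 bp, whereas typical members sat on wide ones.

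Members lay mainly at the centre of wide H3K4me3 regions. They fell on 3656 WT rescue H3K4me3 regions, which is 5.28% of 69221. Of these, 3425 held 1 member, 218 held 2, 11 held 3 and 2 held 4. The H3K4me3 regions that held a member had a median width of 1574 bp, against 747 bp for all WT rescue H3K4me3 regions. Within H3K4me3, 3558 members (91.3%) lay wholly inside, and 51.3% of members had their summit in the central one of 3 equal parts of the H3K4me3 region. The median distance between a member's summit and the H3K4me3 summit was 172 bp, and in 44.0% of members the H3K4me3 summit lay inside the member itself. Of the 3656 regions, 93 also held a shared WDR5 region and 285 (7.80%) also met a mutant rescue WDR5 region elsewhere in their span or at the shared region. Among all WT rescue H3K4me3 regions, 4.42% met a mutant rescue WDR5 region, but these shares were not matched for width. Of all WT rescue H3K4me3 regions of 942 to 1374 bp 4.97% met one, and of those of 1375 to 5388 bp 11.2%. The latter class held 64.6% of the regions with a member.

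Split by width into 5 classes of equal size, the share of H3K4me3 regions that held a member was 0.909% at 151 to 306 bp, 0.860% at 307 to 572 bp, 1.82% at 573 to 941 bp, 5.76% at 942 to 1374 bp and 17.1% at 1375 to 5388 bp. The widest class held 64.6% of all H3K4me3 regions with a member. A wide region offers more bases to overlap, so the members were also counted per 1000 kb of H3K4me3: 41.7, 20.2, 24.7, 51.3 and 102 in the same order of width. Per base the widest class still held more members than any other class, and the narrowest held more than the 2 classes next to it.

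H3K4me3 itself was listed in the mutant rescue at nearly all of these places. Of the 3656 H3K4me3 regions that held a member, 3559 (97.3%, exact 95% interval 96.8 to 97.8%) were overlapped by a mutant rescue H3K4me3 region, against 80.7% of all WT rescue H3K4me3 regions. The interval covers counting error only. The share was 95.7% where the H3K4me3 region held a shared WDR5 region and 79.1% where it met no WDR5 region of either line. The member's own interval was overlapped by mutant rescue H3K4me3 in 3744 cases (96.0%, 95.4 to 96.6%) and not in 155. For shared WDR5 regions on H3K4me3 that share was 95.5%. For the 2112 regions of the mutant rescue alone on its own H3K4me3, the share overlapped by WT rescue H3K4me3 was 89.4%.

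The comparison was also made within width classes, since members sat on wide H3K4me3 regions. In H3K4me3 regions of 151 to 306 bp, 55.6% (n = 126, 46.4 to 64.4%) of those with a member were overlapped in the mutant rescue, against 46.4% of those that met no WDR5 region. At 307 to 572 bp the shares were 76.5% with a member (n = 119, 67.8 to 83.8%) and 67.3% without WDR5. At 573 to 941 bp they were 95.2% with a member (n = 252, 91.8 to 97.5%) and 90.2% without WDR5, at 942 to 1374 bp 99.9% (n = 797) and 98.6%, and in the widest class 100% (n = 2362) and 99.6%. Within each width class the shares with a member and without WDR5 were thus closer than over all widths, where 97.3% stood against 79.1%.

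**Figure D2:**
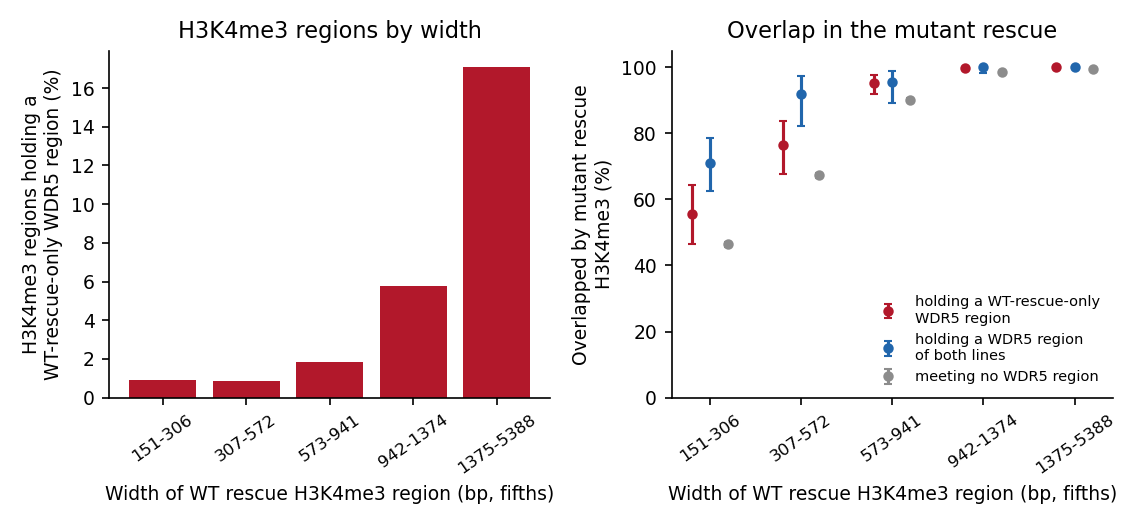
Left, share of WT rescue H3K4me3 regions (percent) that hold a WDR5 region of the WT rescue alone, in 5 width classes of equal size. Right, share of WT rescue H3K4me3 regions overlapped by a mutant rescue H3K4me3 region in the same classes, for those that hold a WDR5 region of the WT rescue alone (red), a WDR5 region of both lines (blue) or no WDR5 region (grey), with exact 95% intervals. The left bars reach 17.1% in the widest class, where the red points on the right stand at 100%.

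The 97 H3K4me3 regions that held a member and had no mutant rescue overlap were 2.65% of those with a member, against 19.3% of all WT rescue H3K4me3 regions. They were narrow, with a median width of 286 bp, the same as for all WT rescue H3K4me3 regions without overlap. Of them 84 were under 600 bp, and the widest was 1283 bp. The 10 members of highest WDR5 fold on such regions sat on H3K4me3 of 151 to 283 bp. At a gene start, these included H2bc14, a replication-dependent H2B histone gene, with a WDR5 fold of 4.20 at chr13:21722251-21722433 on 155 bp of H3K4me3. The others at named genes lay inside Abhd12, Alkbh5, Nrg1 and Rnf114, an E3 ubiquitin ligase gene.

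Where both lines listed H3K4me3, regions of the widest class with a member were mostly narrower in the mutant rescue list, and the other classes were closer to even. From the narrowest to the widest class, the mutant rescue region was the wider one at 45.7%, 53.8%, 48.3%, 41.8% and 15.7% of the H3K4me3 regions with a member. In that widest class it was the wider one at 15.1% of those with a shared WDR5 region and at 30.1% of those that met no WDR5 region. There the median log2 ratio of width, mutant rescue over WT rescue, was −0.094 with a member, −0.12 with a shared region and −0.074 with no WDR5 region. These classes were set by width in the WT rescue, which by itself favours wider WT rescue regions in the widest class. Taken the other way, among mutant rescue H3K4me3 regions of the widest class that held a WDR5 region of the mutant rescue alone, the WT rescue region was wider at 72.0%, against 52.7% of all mutant rescue regions of that class. The difference in width was thus in the same direction at WDR5 regions found in the mutant rescue alone.

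Most members lay at protein-coding genes. Within 1 kb of the annotated start of a protein-coding gene, or of either gene end where the start was not listed, lay 2682 members (68.8%, 67.3 to 70.2%), against 32.2% of all WT rescue WDR5 regions and 21.5% of all WT rescue H3K4me3 regions. The share was 59.1% (56.2 to 62.0%) for shared regions on H3K4me3, 47.7% for regions of the mutant rescue alone on H3K4me3 and 2.77% for regions of the WT rescue alone off H3K4me3. A further 122 members were near a lncRNA gene alone, 61 near another gene alone and 556 (14.3%) inside a protein-coding gene farther from its ends, and 478 (12.3%) were elsewhere. Of the 354 members with a −log10 q of 2 or more, 220 (62.1%) were at a protein-coding gene.

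The summits lay mostly downstream of the start. For 2169 members with a summit within 1 kb of a start, the median position was +173 bp, 76.1% were downstream and 22.5% lay within 100 bp of the start. Shared regions had a median of +145 bp with 71.1% downstream (n = 523), and regions of the mutant rescue alone on H3K4me3 had a median of +126.5 bp with 66.8% downstream (n = 816). The H3K4me3 summits of the regions that held a member were farther in, at a median of +230 bp, with 7.53% within 100 bp of the start (n = 2084). WDR5 summits of the members thus reached closer to the start than the H3K4me3 summits around them. Starts on both strands were within 1 kb for 221 of 2199 members at a start (10.05%), against 13.0% of shared regions and 7.92% of all WT rescue H3K4me3 regions at a start.

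**Figure D3:**
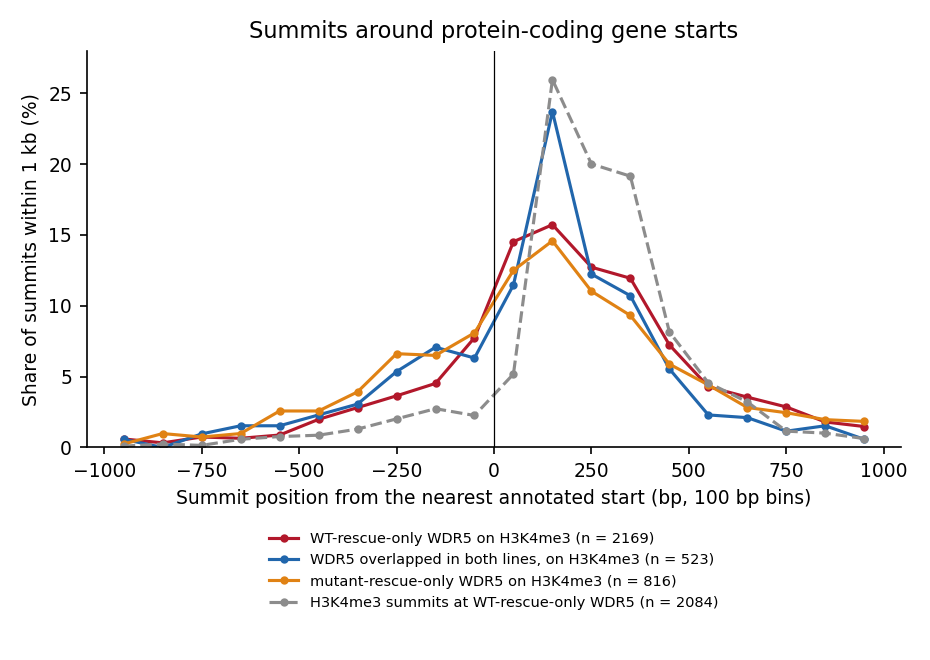
Share of summits within 1 kb of a protein-coding gene start (y axis, percent) by position in 100 bp bins (x axis, bp, positive downstream), for WDR5 regions on H3K4me3 of the WT rescue alone (red), of both lines (blue) and of the mutant rescue alone (orange), and for the H3K4me3 summits at the red regions (grey, dashed). All 4 lines are highest 100 to 200 bp downstream, and the H3K4me3 line lies below the WDR5 lines around the start, with 7.53% of summits within 100 bp of it.

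By gene, 2820 of 20665 protein-coding genes had a member within 1 kb (13.6%). All 2820 also had WT rescue H3K4me3, which the rule asks for at the member, and they are 19.4% of the 14501 genes so marked. A single member was found at 2613 genes, 2 at 203 and 3 at 4 genes. All 2820 genes had mutant rescue H3K4me3 within 1 kb, against 97.9% of all genes with WT rescue H3K4me3. A mutant rescue WDR5 region lay within 1 kb of 285 of them (10.1%), against 13.2% of all genes with WT rescue H3K4me3 and 10.1% of all protein-coding genes. Of genes whose widest H3K4me3 region was in the widest class, 15.6% had one. The rule leaves out WT rescue regions that meet mutant rescue WDR5, so the share at genes with a member is partly set by the choice. At these 285 genes the mutant rescue list held another WDR5 region near the same gene. The share of genes with a member followed H3K4me3 width: 0 of 186 genes whose widest H3K4me3 region was in the narrowest class, then 1.34%, 4.39%, 11.9% and 25.2% in the widest class.

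The genes with the highest member folds were of varied function. The highest folds were at narrow regions of 283 bp, at Ripply3 (fold 5.19), a transcriptional co-repressor gene, and at Jdp2 (fold 5.12, summit at +394 bp), a gene of the AP-1 family. The Ripply3 region and the WT rescue H3K4me3 region under it had the same start and end, chr16:94337707-94337989. Prxl2a, which encodes a peroxiredoxin-like protein, had a 637 bp region with a fold of 4.71 and a −log10 q of 5.37, its summit at +98 bp. H3K4me3 there was 1161 bp wide in the mutant rescue and 1254 bp in the WT rescue. Meaf6, a subunit gene of MYST histone acetyltransferase complexes, had a fold of 4.64 at +143 bp, with H3K4me3 of 1509 bp in the mutant rescue and 1563 bp in the WT rescue. Mgmt, the O6-methylguanine repair enzyme, had a fold of 4.63 with its summit at −274 bp. H3K4me3 over Mgmt was 1165 bp wide in the mutant rescue and 1256 bp in the WT rescue.

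Rprm, a cell cycle arrest gene known as a p53 target, had a fold of 4.62 at +237 bp, and its H3K4me3 was 1281 bp wide in the mutant rescue against 1889 bp in the WT rescue. Smarcad1, a chromatin remodeller gene, had a fold of 4.60 at −258 bp, with H3K4me3 of 1759 bp in the mutant rescue and 2140 bp in the WT rescue. Cbx6, a Polycomb chromobox gene, and Twistnb, an RNA polymerase I subunit gene, both had a fold of 4.54. Dicer1, the ribonuclease that matures microRNAs, and Pcgf6, a Polycomb RING finger gene, both had 4.35. Limd2 had a fold of 4.42 with its summit at −14 bp, and a mutant rescue WDR5 region lay 19 bp away, so its place in the set rests on a short gap. At all these genes the mutant rescue listed H3K4me3.

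Among members of at least 300 bp, Topbp1 had a fold of 4.21 and its summit at +16 bp, with H3K4me3 of 1766 bp in the mutant rescue and 2120 bp in the WT rescue. A mutant rescue WDR5 region lay 926 bp away. Clybl had a fold of 4.33, and its H3K4me3 was 1400 bp wide in the mutant rescue and 1374 bp in the WT rescue. Cmtm4, which encodes a membrane protein that stabilises PD-L1, had the highest −log10 q of this set, 15.1, with a fold of 4.10. Cct8, a subunit gene of the TRiC chaperonin, had a fold of 4.04. The widest members of all were at Ssbp3 (933 bp, fold 2.61), Blcap (916 bp, fold 3.35) and Rbmxl2 (915 bp, fold 3.30). Width and fold thus did not go together at the top of the list. Clock, the circadian transcription factor, had 3 members on an H3K4me3 region of 2009 bp in the mutant rescue and 2039 bp in the WT rescue, with folds of 2.19, 2.34 and 3.20. Ptprg and Rims2 also had 3 members each.

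Several genes of the H3K4 methylation machinery had a member. Of 19 KMT2/SETD1 genes and subunit genes, 8 had a member and none had a mutant rescue WDR5 region within 1 kb. Such a region lay at 13.2% of all genes with WT rescue H3K4me3 and at 15.6% of those in the widest class. The endoderm list also had none, and the absence was not tested. The 8 are 44.4% of the 18 with WT rescue H3K4me3, against 19.4% of all such genes. Their H3K4me3 was wide, and among genes of the widest class 8 of 16 had a member, against 25.2% of all genes of that class. The median fold of their members, 2.51, was below that of all members, 2.64. Kmt2d, the enhancer methyltransferase, had a fold of 4.11 with its summit at −630 bp, and H3K4me3 of 1889 bp in the mutant rescue and 2107 bp in the WT rescue. Wdr82, the SETD1-specific subunit, had a fold of 3.58 at +179 bp, and Kmt2a, also known as MLL1, had 3.12 at −225 bp. H3K4me3 over Kmt2a was 2469 bp wide in the mutant rescue and 2868 bp in the WT rescue. Psip1, whose product LEDGF tethers KMT2A and menin, had a fold of 2.67. Rbbp5, Dpy30 and Paxip1 were the others. Of the 8, 3 had a member with a −log10 q of 2 or more.

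The Wdr5 gene itself, whose endogenous copy is knocked out in both lines, had a member at chr2:27515137-27515539 with a fold of 2.35, a −log10 q of 0 and its summit at +43 bp. H3K4me3 over it was 1769 bp wide in the mutant rescue and 1987 bp in the WT rescue. Trp53, the other gene knocked out, had a member at chr11:69579096-69579372 with a fold of 2.48 and a −log10 q of 0, whose summit lay at −1257 bp from the annotated start. The gene nearest to that region is the neighbouring gene Wrap53. H3K4me3 there was 772 bp wide in the mutant rescue and 822 bp in the WT rescue. Neither member passes a −log10 q of 2.

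Lists of splicing, nucleolar and translation factor genes were above the share of all H3K4me3 genes with a member, 19.4%. Of 71 splicing factor and hnRNP genes with H3K4me3, 28 (39.4%) had a member. In the widest class 28 of 65 had one (43.1%), against 25.2% of all genes of that class. Examples are Srsf7 (fold 3.89 at +163 bp), Hnrnph1 (3.57 at +129 bp), Snrpe (3.49 at +132 bp), Srsf5 (3.47) and Hnrnpu (3.46). The list's median fold was 2.95, and 7 of the 28 genes had a member with a −log10 q of 2 or more. Of 50 nucleolar and ribosome biogenesis genes with H3K4me3, 19 (38%) had a member, and of those in the widest class 15 of 45 (33.3%). Among them were Ncl, the nucleolin gene (fold 4.0 at +764 bp), Wdr43 (3.85), Nop2 (3.57) and the fibrillarin gene Fbl (3.16). Of 68 translation initiation and elongation genes with H3K4me3, 23 (33.8%) had a member, such as Eef1b2 (3.79), Eif2ak3 (3.58) and Eif4a3 (3.55). In the widest class 21 of 56 of these genes had one (37.5%). The Eef1b2 region is the same one as that of its neighbour Ndufs1, and it counts for both genes.

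Small-subunit ribosomal protein genes had a member at 10 of 30 with H3K4me3 (33.3%), a mutant rescue WDR5 region at 16 and a shared region at 13. Large-subunit genes had a member at 7 of 49 (14.3%), a mutant rescue WDR5 region at 35 and a shared region at 34. At large-subunit genes most WDR5 was thus of both lines and outside the set described here. The difference in member counts between the subunits was not tested, and with both WDR5 lists held to a −log10 q of 2 or more it turned round, to 0 small-subunit and 3 large-subunit genes. Their H3K4me3 was in the widest class at 30 small-subunit and 48 large-subunit genes. Members at large-subunit genes included Rpl4 (fold 3.68 at +123 bp), Rplp1 (3.46), Rpl30 (2.73), Rpl19 (2.56) and Rpl7 (1.92). At small-subunit genes they included Rps25 (2.79), Rps16 (2.71), Rps27 (2.63) and Rps23 (2.54), none of them with a −log10 q of 2 or more. Mitochondrial ribosomal protein genes had a member at 13 of 77 (16.9%), below the 19.4% of all H3K4me3 genes, and in the widest class at 11 of 52.

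The metabolic and housekeeping lists named next ranged between 24.4% and 38.5%, against 19.4% of all H3K4me3 genes. In the widest H3K4me3 class 25.2% of all genes had a member. There proteasome genes had one at 10 of 39 (25.6%), replication-dependent histone genes at 6 of 25 (24%) and oxidative phosphorylation genes at 19 of 64 (29.7%). RNA polymerase II and Mediator genes had one at 14 of 40 (35%), tRNA synthetase genes at 10 of 28 (35.7%) and glycolysis genes at 5 of 11 (45.5%). Glycolysis genes had a member at 5 of 13 (38.5%): Ldha (fold 3.40 at +41 bp), Pgam1 (2.93), Pfkm (2.52), Eno1 (2.34) and Pkm (2.20). The Pfkm member lay 79 bp from a mutant rescue WDR5 region. Over Eno1 the overlapping H3K4me3 region was 177 bp wide in the mutant rescue and 356 bp in the WT rescue, where its H3K4me3 fold was 2.00. These are single listed regions and need not be the whole H3K4me3 of the gene. Oxidative phosphorylation genes had a member at 20 of 82 (24.4%) and no shared region, proteasome subunit genes at 13 of 49 (26.5%) and tRNA synthetase genes at 10 of 36 (27.8%). RNA polymerase II and Mediator genes had one at 16 of 56 (28.6%), of which none had a −log10 q of 2 or more. Replication-dependent histone genes had one at 19 of 60 (31.7%), including H3c3 (fold 3.16) and the linker histone gene H1f2 (3.05). These genes are clustered and near-identical, so reads that map to several copies could be assigned to either.

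Several chromatin regulator and genome maintenance lists were above the share of all H3K4me3 genes. Polycomb subunit genes had a member at 9 of 24 (37.5%), among them Pcgf6, Pcgf5 (fold 3.27), Rybp (2.97), Ring1 (2.78) and Suz12 (2.73). The H3K4me3 region under the Suz12 member was 2422 bp wide in the mutant rescue and 328 bp in the WT rescue, where its H3K4me3 fold was 1.62. Each such pair sets a single WT rescue region beside the mutant rescue region that overlaps it most. H3K4me3 listed in several pieces would look narrower, so the pair does not measure the whole H3K4me3 at Suz12. Histone acetyltransferase and remodeller genes had a member at 11 of 36 (30.6%), including Kat8 (3.37), Chd7 (3.22) and Kat6a (3.16). DNA repair genes had one at 10 of 30 (33.3%), including Wrn (3.77), Msh6 (3.46) and Rad50 (3.31), with a median fold of 3.14. Known p53 targets had one at 7 of 23 (30.4%), such as Bbc3 (3.13), Ccng1 (3.12) and Gadd45a (2.89). The Ccng1 member lay 8 bp from a mutant rescue WDR5 region. Other WDR5 partner and MYC network genes had one at 6 of 26 (23.1%), with Mxi1 (3.60) and Kansl1 (2.76) among them, and cell cycle genes at 7 of 33 (21.2%), with Aurka (3.31), Cdk2 (2.97) and Pcna (2.58). These last 2 lists are near the share of all H3K4me3 genes. In the widest H3K4me3 class 6 of 24 partner and MYC network genes (25%) and 7 of 30 cell cycle genes (23.3%) had a member, against 25.2% of all genes.

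Naive pluripotency genes had members at 25%, against 19.4% of all H3K4me3 genes, and lists of formative genes and developmental regulators varied. Of 24 naive pluripotency genes, all with H3K4me3, 6 had a member (25%): Sox2 (fold 3.63 at +335 bp), Utf1 (3.13 at +111 bp), Tfcp2l1 (2.89 at +352 bp), Klf2 (2.69), Nanog (2.56 at +109 bp) and Klf4. In the widest H3K4me3 class, 6 of 23 naive genes had a member (26.1%, against 25.2% of all genes). Of the 6, 1 had a −log10 q of 2 or more. H3K4me3 over Sox2 was 2665 bp wide in the mutant rescue and 2867 bp in the WT rescue, and over Nanog 2656 bp in the mutant rescue and 2900 bp in the WT rescue. The naive list had 1 gene with a mutant rescue WDR5 region, and it had no member. Formative and primed genes had a member at 4 of 13 (30.8%), with Zic2 (3.53), Etv4 (2.84), Foxd3 (2.16) and Pou3f1 (1.92). In the widest H3K4me3 class 4 of 12 of them had one (33.3%). Eye field and neuroectoderm genes had a member at 2 of 19, Neurog2 (4.23 at +892 bp) and Sox11 (3.46), mesoderm genes at 1 of 15, Isl1, and Hox genes at 4 of 35. Endoderm genes had one at 3 of 10 (30%). Of 22 olfactory receptor genes with H3K4me3 none had a member. A mutant rescue WDR5 region lay within 1 kb of 31 of all 1104 olfactory receptor genes, marked or not. That is a smaller share than the 10.1% of all protein-coding genes. Markers of other cells were at 1 of 9 fibroblast genes with H3K4me3, Vim, and at 1 of 7 trophectoderm genes, Ascl2. The Vim member lay 49 bp from a mutant rescue WDR5 region.

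**Figure D4:**
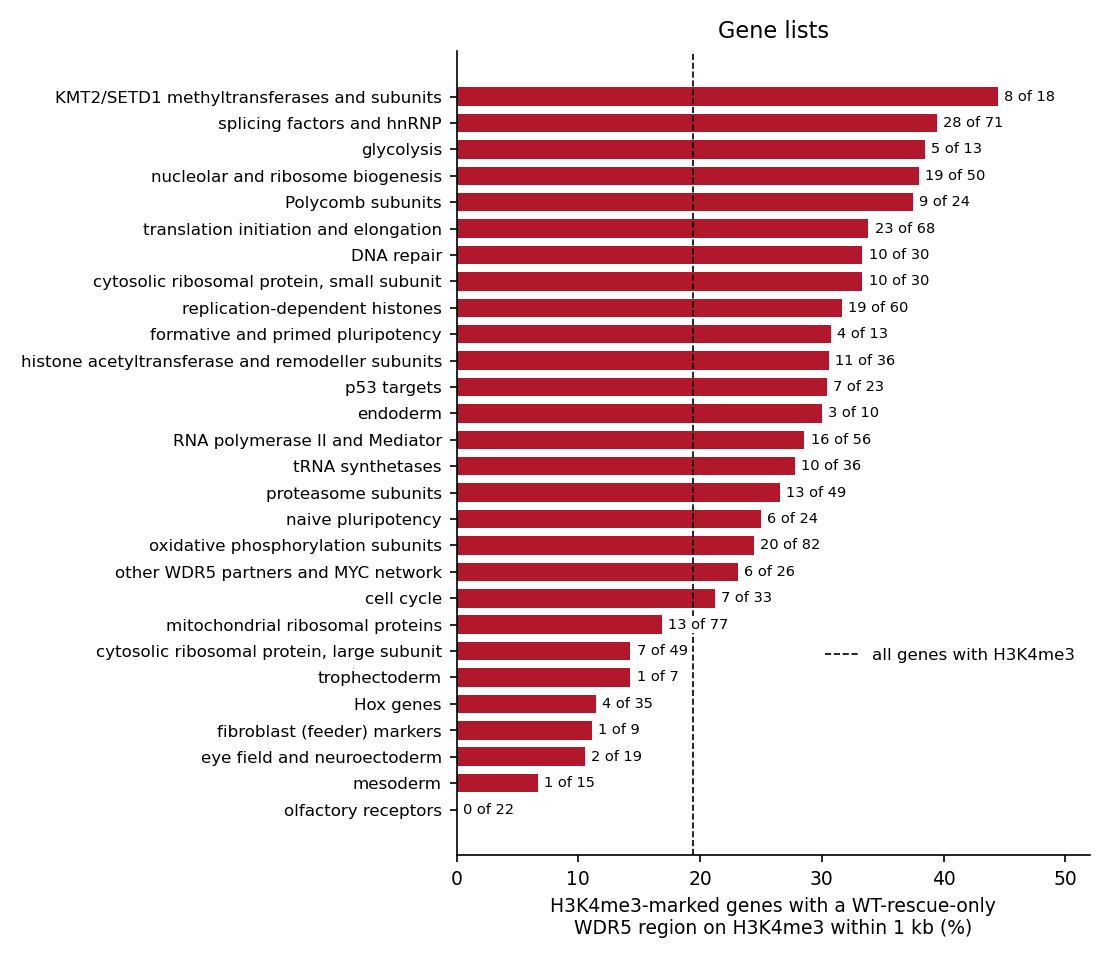
Share of the genes of each list with WT rescue H3K4me3 that have a WDR5 region of the WT rescue alone on H3K4me3 within 1 kb (x axis, percent), with the counts beside each bar. The dashed line is the share of all protein-coding genes with WT rescue H3K4me3, 19.4%. The KMT2/SETD1 genes are at 44.4% and the large-subunit ribosomal protein genes at 14.3%.

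Members were almost missing from transfer RNA genes, where WDR5 regions of both lines and of the mutant rescue alone were found. The rule leaves out WT rescue regions that meet mutant rescue WDR5, so a low count at such genes is partly set by the choice. The share among all WT rescue WDR5 regions was not counted. Within 200 bp of a transfer RNA gene lay 1 of 3899 members (0.0256%), at n-TIaat7. For shared regions on H3K4me3 the count was 65 of 1123 (5.79%), and for regions of the mutant rescue alone on H3K4me3 it was 127 of 2112 (6.01%). Small nucleolar RNA genes were within that distance of 13 members (0.333%), against 1.34% of shared regions and 0.237% of regions of the mutant rescue alone on H3K4me3. MicroRNA genes, among them Mirlet7i, were within it of 16 members (0.410%), against 0.712% of shared regions and 0.284% of regions of the mutant rescue alone. Members were found on every chromosome from 1 to 19. The share of WT rescue H3K4me3 regions with a member was between 4.49% on chromosome 6 and 6.45% on chromosome 8, and the members' share of WT rescue WDR5 regions between 28.3% on chromosome 14 and 47.8% on chromosome 19.

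The promoter windows under members were CpG-rich. Of 20063 protein-coding promoter windows, 1130 were overlapped by a member, 415 by a shared region on H3K4me3, 426 by a region of the mutant rescue alone on H3K4me3, and 9064 by WT rescue H3K4me3 with no WDR5 region within 1 kb. The median ratio of observed to expected CpG was 0.87 under members, 0.92 under shared regions, 0.87 under regions of the mutant rescue alone and 0.72 with H3K4me3 alone, against 0.59 in all windows. The median GC content was 66% under members, 64% under shared regions, 67% under regions of the mutant rescue alone and 61% with H3K4me3 alone, against 57% in all windows. As in the sequences above, the match of a motif is a description of the letters and not a bound site.

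For the ETS motif the interval under members lay above that with H3K4me3 alone, and for the NF-Y motif it lay below. The differences themselves were not tested. CCGGAAG was in 24.9% of windows under members (22.4 to 27.5%) and 26.7% under shared regions, as in Topbp1, which has it on each strand. It was in 17.1% under regions of the mutant rescue alone (13.7 to 21.1%), 16.01% with H3K4me3 alone (15.3 to 16.8%) and 11.9% of all windows. CCAAT was in 28.3% of windows under members (25.7 to 31.0%) and 30.8% under shared regions, and in 39.4% under regions of the mutant rescue alone (34.8 to 44.3%), 38.6% with H3K4me3 alone (37.6 to 39.7%) and 38.1% of all. Clybl and Rps9 above hold it on the opposite strand, as ATTGG. Among windows with a CpG ratio of 0.8 to 1, the intervals under members again lay above (ETS) and below (NF-Y) those with H3K4me3 alone. There CCGGAAG was in 27.7% under members (n = 488, 23.7 to 31.9%), 26.9% under shared regions (n = 182), 17.7% under regions of the mutant rescue alone (n = 164, 12.2 to 24.4%) and 21.6% with H3K4me3 alone (n = 2532, 20.01 to 23.3%). In that class CCAAT was in 28.5% under members (24.5 to 32.7%), 29.7% under shared regions, 41.5% under regions of the mutant rescue alone and 37.6% with H3K4me3 alone (35.7 to 39.5%).

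The E-box CACGTG, the letters bound by MYC and its partners, was in 12.1% of windows under members (10.3 to 14.2%), 18.8% under shared regions (15.2 to 22.9%), 13.6% under regions of the mutant rescue alone, 9.07% with H3K4me3 alone and 7.89% of all windows. Among the 106 windows under a member with a −log10 q of 2 or more, 24 had it (22.6%, 15.1 to 31.8%). With a CpG ratio of 0.8 to 1, the E-box was in 11.7% under members (8.97 to 14.9%) and 11.7% of all windows. There it was in 19.2% under shared regions, 13.4% under regions of the mutant rescue alone and 10.3% with H3K4me3 alone. In that class 7 of 38 windows under a member with a −log10 q of 2 or more had it (18.4%, 7.74 to 34.3%). Ldha holds it at 2 places. GGGCGG, the SP/KLF motif, was in 72.1% under members, 67.7% under shared regions, 74.6% under regions of the mutant rescue alone, 65.0% with H3K4me3 alone and 47.0% of all, and in windows with a CpG ratio of 0.8 to 1 in 76.8% under members and 78.0% with H3K4me3 alone. The YY1 motif was in 8.14% of windows under members and 6.30% of all windows, the NRF1 core in 6.90% under members and 4.50% of all, and the CRE core in 6.19% under members and 3.92% of all. With a CpG ratio of 0.8 to 1, all 3 turned round: the YY1 motif was in 7.17% under members and 7.42% of all, the NRF1 core in 6.97% under members and 8.27% of all, and the CRE core in 6.35% under members and 6.77% of all. TATAAA was in 1.86% of windows under members (1.15 to 2.83%), 4.34% under shared regions, 4.30% with H3K4me3 alone and 8.29% of all windows. Under regions of the mutant rescue alone it was in 2.58% (1.30 to 4.57%), an interval that overlaps that of members. With a CpG ratio of 0.8 to 1 it was in 1.64% under members (0.710 to 3.20%), 2.75% under shared regions and 1.22% under regions of the mutant rescue alone. There it was in 2.88% with H3K4me3 alone and 2.72% of all windows. CTTTCC, the pyrimidine tract, was in 24.7% under members, 30.1% under shared regions and 26.0% of all windows.

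**Figure D5:**
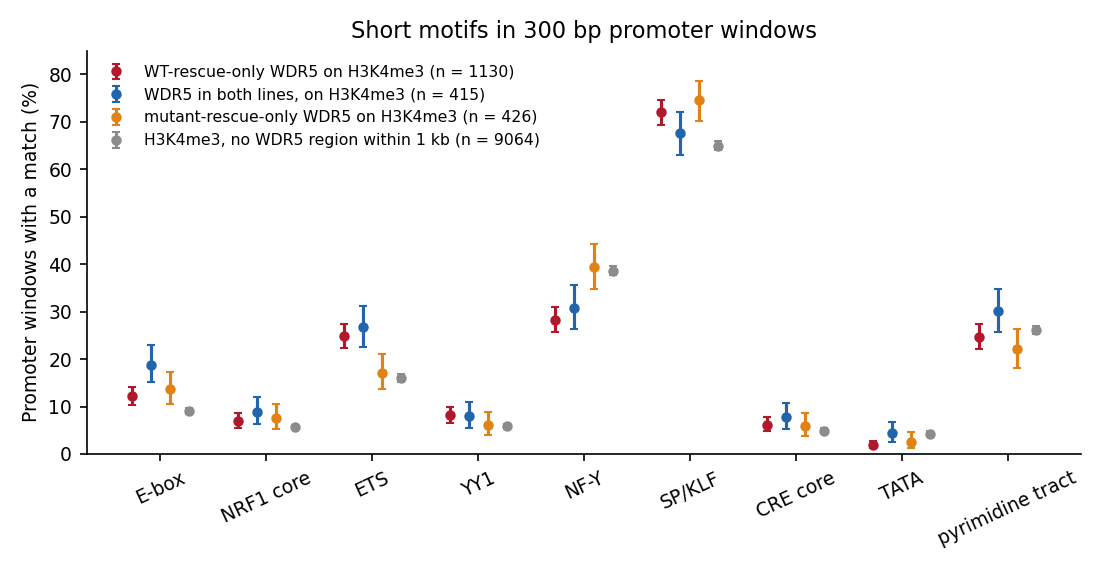
Share of 300 bp promoter windows with a match to each motif (y axis, percent, with exact 95% intervals), for windows under a WDR5 region on H3K4me3 of the WT rescue alone (red), of both lines (blue) or of the mutant rescue alone (orange) and for windows with H3K4me3 and no WDR5 region within 1 kb (grey). For the ETS motif red and blue stand at 24.9% and 26.7%, above 17.1% and 16.01% for orange and grey, and for NF-Y they stand at 28.3% and 30.8%, below 39.4% and 38.6%.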

How the data were processed

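The analysis used 4 peak lists, for WDR5 and H3K4me3 in each line; inputs were not used here. Per the submitters' processing notes, the tools were MACS2 2.1.2, BWA 0.7.17-r1188, Picard and SAMtools and the build was mm10; settings and control are not given in the sources used here. Each deposited region carries a fold enrichment, a −log10 p, a −log10 q and a summit, all as the authors made them. The smallest −log10 p of a WDR5 region deposited for the WT rescue was 2.00, so regions of a −log10 q near 0 are included. The score column deposited by the authors was left unused. Peak lists carry no read depth.

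Overlaps of at least 1 bp were taken with bedtools 2.31.1; distances count 1 as touching. Genes and promoter windows came from RefSeq on GRCm38.p6, the assembly that mm10 coordinates follow. A gene start came from the promoter table for 16457 of 20665 protein-coding genes on chromosomes 1 to 19, and otherwise either annotated gene end within 1 kb counted. The promoter table held no gene of chromosome 18, which has 116 members. Summit positions, promoter windows and counts from listed starts alone therefore leave that chromosome out. Shares have exact (Clopper-Pearson) 95% intervals, for counting error only; members that share a gene or an H3K4me3 region are not independent. Scripts ran in Python 3.11.15 with pandas 2.3.3, scipy 1.17.1, matplotlib 3.10.9 and numpy 2.4.6. The overlap code was tested on simulated regions. No test between lines was made, since each had 1 library per antibody.

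The members and gene lists were chosen with earlier results of these data known. The genes named are those of highest fold, highest −log10 q, largest width and most members, those at the edges of the rule, up to 5 genes per list by fold, and Wdr5 and Trp53; 1 gene that the rule takes is not reported here. After values were seen, 3 lists were dropped (protocadherins, snoRNA hosts, imprinted genes), the MYC network was merged with other WDR5 partners and the tRNA synthetases were written out by name; the printed promoters, members of at least 300 bp, the CpG ratio class, the width classes and the RNA gene classes were also chosen then. Alternatives were limits on WDR5 significance (−log10 q 2 or more, −log10 p 5 or more), WDR5 lists of equal length, stricter overlaps and a window of 2.5 kb. Added after seeing the data were listed gene starts alone, either gene end for every gene, the gene list counts without H3K4me3 regions that met mutant rescue WDR5, and removal of WDR5 regions under 300 bp with a fold of at least 5.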

Additional observations from a re-analysis of the deposited data

How the results depend on the processing

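The size of the set depends mainly on the significance asked of a WDR5 region. It was 3899 as deposited, 1002 when both WDR5 lists were held to a −log10 p of 5 or more, and 478 when held to a −log10 q of 2 or more. Of the 478, 124 overlap a mutant rescue region of lower −log10 q, so a stricter limit removes mutant rescue regions as well as members. Equal list lengths gave 4126, and the other alternatives, which asked for more overlap with H3K4me3, a gap of 500 bp to mutant rescue WDR5, no mutant rescue WDR5 on the same H3K4me3 region, more significant H3K4me3 or no narrow regions of high fold, gave 3588 to 3897. The share of H3K4me3 regions with a member that were overlapped in the mutant rescue, 97.3%, was 96.1% when mutant rescue H3K4me3 had to cover 50% of the region and 95.3% with the −log10 q limit on WDR5. The share of members at a protein-coding gene, 68.8%, was 73.4% in a window of 2.5 kb, 62.3% with the −log10 q limit and 56.4% from listed gene starts alone, an alternative added after seeing the data. With the −log10 q limit, 331 genes had a member in place of 2820, and 45 of the 2086 listed genes in place of 260. No paired analysis was possible because each antibody had 1 library per line, and no library could be left out for the same reason. Peak lists hold no read totals, so what depth would have let the mutant rescue list detect is unknown.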
